A study of Mus musculus with 7 samples.

Results

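Integrin and laminin chains were followed across 7 RNA-Seq libraries of mouse reprogramming and pluripotent cells. The members are protein-coding genes whose symbols name an integrin alpha chain, an integrin beta chain or a laminin chain, and 36 of the 29267 genes in each table are described. They comprise 18 integrin alpha, 8 integrin beta and 10 laminin genes. The symbol rule used no expression value, but the set was chosen with earlier results of these data known.

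The study asked how the chemically defined 5C medium, compared with conventional mES medium, influences the making of induced pluripotent stem cells (iPSCs) from mouse embryonic fibroblasts (MEFs). The MEFs were of the OG2 line, which carries an egfp reporter driven by the Oct4 promoter (GOF18ΔPE), and all received Oct4, Sox2, Klf4 and c-Myc by retrovirus. Cells grown in mES medium (serum, LIF and vitamin C) or in 5C medium (DMEM/F12, N2, bFGF, β-mercaptoethanol, vitamin C and LIF) were sorted on day 15 into Oct4GFP+ and Oct4GFP- fractions, which gave the libraries mES-Oct4GFP+ with mES-Oct4GFP- and 5C-Oct4GFP+ with 5C-Oct4GFP-, all at passage 0. The other three libraries were at passage 20 in the labels. They are 5C-Oct4GFP+ (naive), made by converting 5C-Oct4GFP+ cells in naive medium (LIF with the inhibitors CHIR99021 and PD0325901), 5C-Oct4GFP+ (primed), made likewise in primed medium (bFGF and activin A at first), and R1 ESCs-primed, from the mouse ES cell line R1, whose cells were brought to the primed state on MEF feeder cells and then kept on serum-coated plates with CHIR99021 and IWR-1. All libraries but the last therefore share the OG2 origin and the retroviral factors, whose reads cannot be told apart from those of the cells' own Oct4, Sox2, Klf4 and c-Myc. Each group had 1 library and no replicate, so no test was possible, and every interval below covers counting error only.

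Integrins are cell surface receptors built from an alpha and a beta chain, and the pair decides which matrix protein is bound. Itgb1 pairs with many alpha chains, Itgav pairs with several beta chains, and Itgb4 pairs with Itga6 alone, in the hemidesmosomes that anchor epithelial cells. Laminins are secreted trimers of one alpha, one beta and one gamma chain that polymerise into basement membranes, the sheets on which epithelia and the early epiblast rest. The chains Lama3 and Lamb3 belong to the laminin under hemidesmosomes, whereas Lama1 or Lama5 with Lamb1 and Lamc1 form the laminins of the early embryo.

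Sequences upstream of 5 members are shown because these chains make up the fibronectin receptor (Itga5 with Itgb1), the vitronectin receptor (Itgav with Itgb5) and the most abundant laminin alpha chain (Lama5). Each is the 250 bases before the RefSeq transcription start, 5′ to 3′ on the gene's own strand, build GRCm38.p6, at chr8:128685404-128685653 (+) for Itgb1, chr15:103366792-103367041 (-) for Itga5, chr16:33829415-33829664 (+) for Itgb5, chr2:83724147-83724396 (+) for Itgav and chr2:180225860-180226109 (-) for Lama5. Capitals mark matches, on either strand, to GGGCGG (the Sp1 or GC box) and to CACCTG (an E-box that Snail and Zeb factors can bind).
Itgb1: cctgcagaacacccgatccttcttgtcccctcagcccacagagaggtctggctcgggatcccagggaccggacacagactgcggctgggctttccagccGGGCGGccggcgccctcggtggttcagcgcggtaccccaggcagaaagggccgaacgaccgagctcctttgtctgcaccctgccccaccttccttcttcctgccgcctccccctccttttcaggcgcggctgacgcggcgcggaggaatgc
Itga5: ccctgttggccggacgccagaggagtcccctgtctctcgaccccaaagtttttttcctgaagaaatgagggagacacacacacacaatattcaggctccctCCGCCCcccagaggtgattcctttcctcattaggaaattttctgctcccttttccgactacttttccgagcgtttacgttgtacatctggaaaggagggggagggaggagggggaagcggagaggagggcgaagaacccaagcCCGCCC
Itgb5: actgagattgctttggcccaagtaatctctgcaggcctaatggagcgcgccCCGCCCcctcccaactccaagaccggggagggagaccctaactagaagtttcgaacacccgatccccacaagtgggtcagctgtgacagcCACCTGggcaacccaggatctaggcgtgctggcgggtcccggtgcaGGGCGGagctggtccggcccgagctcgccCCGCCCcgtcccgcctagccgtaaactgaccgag
Itgav: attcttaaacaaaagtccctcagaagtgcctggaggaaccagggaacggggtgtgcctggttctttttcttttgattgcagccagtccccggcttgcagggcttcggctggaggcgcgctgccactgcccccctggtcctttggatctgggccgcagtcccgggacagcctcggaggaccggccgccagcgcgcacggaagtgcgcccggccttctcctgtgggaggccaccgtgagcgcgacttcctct
Lama5: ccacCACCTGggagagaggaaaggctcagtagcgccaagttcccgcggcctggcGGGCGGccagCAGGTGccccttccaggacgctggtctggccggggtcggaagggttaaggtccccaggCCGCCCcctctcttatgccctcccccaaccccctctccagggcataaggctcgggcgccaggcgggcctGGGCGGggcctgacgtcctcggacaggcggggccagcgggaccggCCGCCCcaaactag
The RefSeq table held 26 such windows for 23 of the 36 members. GGGCGG was in 9 of the 26 windows and in 32.7% of all 32851 windows, and CACCTG was in 8 of the 26 and in 17.2% of all. TGANTCA (AP-1) was in 1 member window, that of Itgax, and in 6.75% of all, while TATAAA was in 0 of the 26 and in 12.4% of all. Among the windows shown, the GC box occurred at 4 places for Lama5, 3 for Itgb5, 2 for Itga5 and 1 for Itgb1, and the E-box at 2 places for Lama5 and 1 for Itgb5, with no overlap between matches. Itgav had neither motif in its window.

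The expected counts summed to between 6108252 and 11496615 per library, and a single read amounted to 0.0950 to 0.181 TPM on a median-length gene. Levels are given in TPM, which is per transcript length and can be set side by side between genes. The 8 naive pluripotency markers checked the labels in part. Without Klf4, which was also delivered, they ran between 45.8 and 494 TPM in mES-Oct4GFP+ cells, between 20.3 and 254 TPM in 5C-Oct4GFP+ cells and between 62.1 and 388 TPM in naive cells, and stayed at 48.8 TPM or less in the Oct4GFP- fractions and at 9.09 TPM or less in both primed libraries. Of the Oct4GFP+ libraries, that of 5C medium was far lower for Dppa3 and Tfcp2l1, at 71.2 against 494 TPM and 29.1 against 194 TPM. The 8 primed markers summed to 2174 and 1990 TPM in primed and R1 ESCs-primed cells and to 129 to 710 TPM in the rest. The 10 fibroblast markers summed to 616 and 273 TPM in mES-Oct4GFP- and 5C-Oct4GFP- cells, 80.5 and 229.5 TPM in primed and R1 ESCs-primed cells, and 9.48 to 15.7 TPM in the other three libraries. The 5 keratinocyte markers summed to 230.1 and 230.4 TPM in mES-Oct4GFP- and 5C-Oct4GFP- and to 124.5 TPM in 5C-Oct4GFP+, almost all of it Krt17 in the latter, and to at most 2.37 TPM elsewhere. The 7 markers of primitive and parietal endoderm summed to 181 to 185 TPM in mES-Oct4GFP-, primed and R1 ESCs-primed cells, 30.9 TPM in 5C-Oct4GFP- and at most 11.9 TPM in the rest. The like sums came from different genes. In primed and R1 ESCs-primed cells they were mostly Foxa2, at 82.9 and 106 TPM, and Sox17, at 60.4 and 35.3 TPM. In mES-Oct4GFP- cells they were mostly Dab2, at 103 TPM, and Gata4, at 33.0 TPM. The study counts Foxa2 among its markers of the primed state. The Oct4GFP- fractions therefore carried markers of several of these lists, and both primed libraries carried fibroblast and endoderm markers as well. In bulk RNA, a mixture of cell types cannot be told apart from cells that each express genes of several lists. Nor can fewer cells of a type be told apart from less RNA per cell.

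The 36 members together held 0.0856%, 0.288%, 0.106%, 0.162%, 0.0719%, 0.0963% and 0.0982% of all TPM in the libraries in the order given above, from mES-Oct4GFP+ and mES-Oct4GFP- to R1 ESCs-primed. The mES-Oct4GFP- library stood highest and the naive library lowest. Integrin chains summed to 1654 TPM in mES-Oct4GFP- and to 232 TPM in naive cells, and the 10 laminin chains to 1228 TPM in mES-Oct4GFP- and to 425 TPM in R1 ESCs-primed. A level of 10 TPM or more in any library was reached by 17 members, 31 reached 1 TPM somewhere, 16 were at 1 TPM or more in every library, and 5 stayed under 1 TPM throughout. Of the 17 members over 10 TPM, 12 were highest in mES-Oct4GFP-, 7 were lowest in naive cells and 6 were lowest in R1 ESCs-primed.

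**Figure D1:**
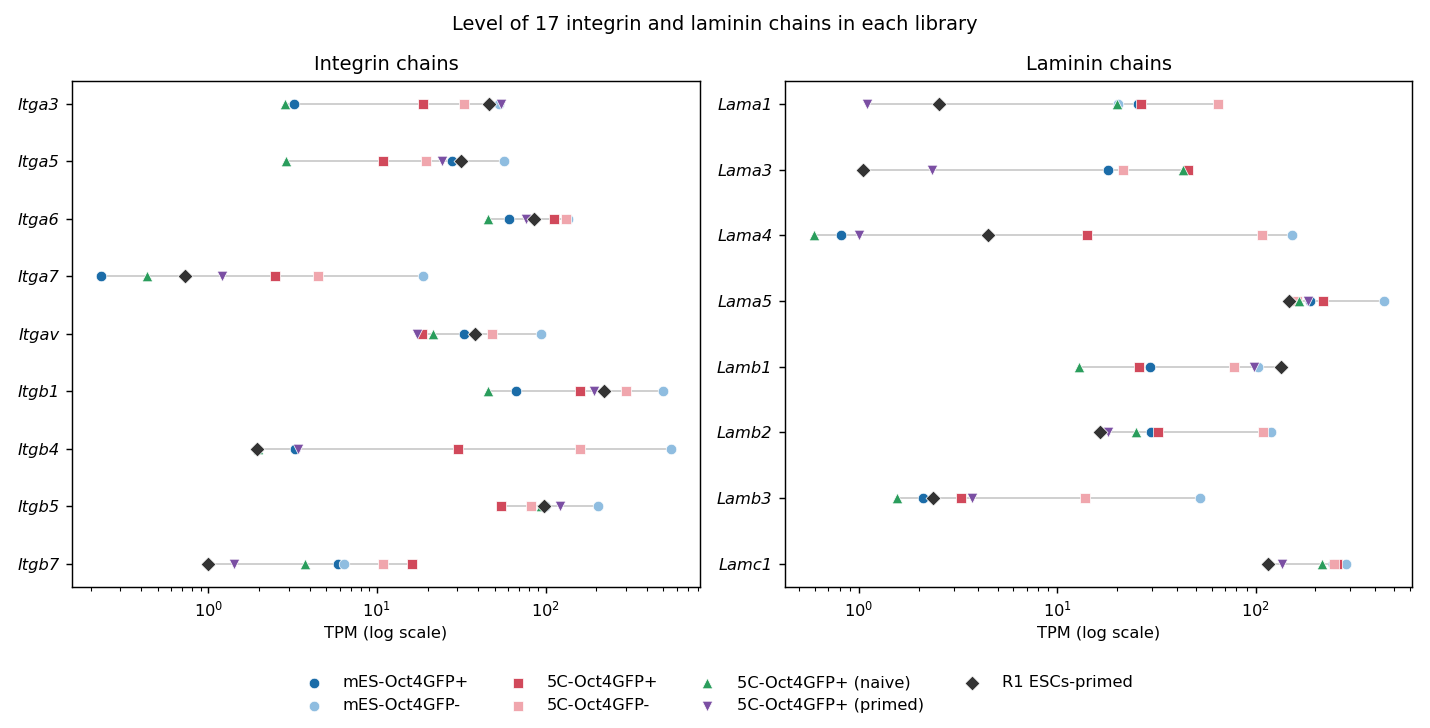
Level of the 17 members that reached 10 TPM, in TPM on a log scale, with 1 point per library and a grey line from the lowest to the highest. Lamc1, Itga6 and Lama5 spanned 2.49-, 2.94- and 3.01-fold across the 7 libraries, whereas Itgb4 and Lama4 spanned 285- and 260-fold.

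Among the laminin alpha chains, Lama5, the chain of most adult epithelial basement membranes and of the epiblast, was the most abundant in every library. Lama5 stood at 188 TPM in mES-Oct4GFP+ cells and at 444 in mES-Oct4GFP- cells, at 218 in 5C-Oct4GFP+ cells and at 162 in 5C-Oct4GFP- cells, and at 166 in naive, 183 in primed and 148 in R1 ESCs-primed cells. It was highest in mES-Oct4GFP- and within a narrow range in the other libraries. Lama5 supplied 80.9% of the laminin alpha TPM in mES-Oct4GFP+, 44.8% in 5C-Oct4GFP-, and 97.5% and 94.0% in primed and R1 ESCs-primed cells.

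Lama1 is the alpha chain of the first embryonic basement membranes. Lama1 was at 25.4 TPM in mES-Oct4GFP+ and 20.2 in mES-Oct4GFP- cells, 26.4 and 64.6 in 5C-Oct4GFP+ and 5C-Oct4GFP- cells, and 20.0, 1.09 and 2.53 TPM in naive, primed and R1 ESCs-primed cells. It was highest in 5C-Oct4GFP-, alike in the other three sorted libraries and the naive one, and lowest in both primed libraries. Lama3, the alpha chain of the laminin under hemidesmosomes, was lowest in the primed libraries as well. Lama3 stood at 18.0 TPM in mES-Oct4GFP+ cells and at 44.5 in mES-Oct4GFP- cells, at 45.5 in 5C-Oct4GFP+ cells and at 21.3 in 5C-Oct4GFP- cells, and at 43.0 in naive, 2.33 in primed and 1.05 in R1 ESCs-primed cells. Levels in 5C-Oct4GFP+, mES-Oct4GFP- and naive cells were close, and those of mES-Oct4GFP+ and 5C-Oct4GFP- were under them. Exons of Lama3 overlap those of Gm29200 on the opposite strand, a gene at no more than 1.17 TPM in any library, and the kit did not record strand.

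Lama4 is found in the basement membranes of blood vessels, muscle and other mesenchymal tissue. Lama4 was at 0.81 TPM in mES-Oct4GFP+ and 153 in mES-Oct4GFP- cells, 14.1 and 108 in 5C-Oct4GFP+ and 5C-Oct4GFP- cells, and 0.59, 1.00 and 4.45 TPM in naive, primed and R1 ESCs-primed cells. Both Oct4GFP- libraries stood far above the others, 5C-Oct4GFP+ came next, and the remaining libraries were low, down to 6 reads in naive cells. Lama4 made up 23.0% of the laminin alpha TPM in mES-Oct4GFP- and 29.9% in 5C-Oct4GFP-, against 0.257% to 4.63% elsewhere. The 5 endothelial markers summed to 36.7, 43.2 and 27.2 TPM in mES-Oct4GFP-, 5C-Oct4GFP- and 5C-Oct4GFP+ and to at most 8.61 TPM elsewhere. In the same order, Tek alone was at 19.9, 40.4 and 22.7 TPM, Kdr at 6.51, 1.40 and 4.04 TPM and Cdh5 at 7.07, 1.14 and 0.22 TPM. Tie1 and Emcn were at 2.34 TPM or less. The part of these markers in the Lama4 level was not tested. Lama2, the muscle and nerve chain, reached 5.04 and 5.4 TPM in mES-Oct4GFP- and 5C-Oct4GFP- and at most 1.44 TPM in the other libraries.

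Of the beta chains, Lamb1 is the widespread embryonic form. Lamb1 stood at 29.2 TPM in mES-Oct4GFP+ cells and at 102 in mES-Oct4GFP- cells, at 25.8 in 5C-Oct4GFP+ cells and at 77.6 in 5C-Oct4GFP- cells, and at 12.8 in naive, 98.5 in primed and 134 in R1 ESCs-primed cells. R1 ESCs-primed, mES-Oct4GFP- and primed cells were highest and naive cells lowest. Lamb2, the beta chain of mature basement membranes such as those of kidney and synapse, was ordered otherwise. Lamb2 was at 29.7 TPM in mES-Oct4GFP+ and 119 in mES-Oct4GFP- cells, 32.4 and 109 in 5C-Oct4GFP+ and 5C-Oct4GFP- cells, and 25.1, 18.1 and 16.3 TPM in naive, primed and R1 ESCs-primed cells. Both Oct4GFP- libraries were high and the primed libraries lowest, so that Lamb1 was 81.9% and 87.8% of the laminin beta TPM in primed and R1 ESCs-primed cells and 32.5% to 47.8% in the rest. Lamb3, the beta chain of the hemidesmosome laminin, was high in mES-Oct4GFP- alone. Lamb3 stood at 2.10 TPM in mES-Oct4GFP+ cells and at 52.5 in mES-Oct4GFP- cells, at 3.25 in 5C-Oct4GFP+ cells and at 13.7 in 5C-Oct4GFP- cells, and at 1.56 in naive, 3.70 in primed and 2.37 in R1 ESCs-primed cells. The value of 5C-Oct4GFP- was intermediate and the rest were at 1.56 to 3.7 TPM.

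Lamc1, the gamma chain shared by most laminins, varied least of the described members. Lamc1 was at 246 TPM in mES-Oct4GFP+ and 286 in mES-Oct4GFP- cells, 257 and 249 in 5C-Oct4GFP+ and 5C-Oct4GFP- cells, and 217, 135 and 115 TPM in naive, primed and R1 ESCs-primed cells. The libraries other than the primed ones lay between 217 and 286 TPM, with both primed libraries lower. Lamc3, at 0.97 TPM or less, stayed under 1 TPM in all 7 libraries.

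The laminin beta chains were also set against the alpha chains within each library, as sums of TPM. They summed to 0.262, 0.202 and 0.172 of the alpha chains in mES-Oct4GFP+, 5C-Oct4GFP+ and naive cells. The same ratio was 0.411 and 0.554 in mES-Oct4GFP- and 5C-Oct4GFP-, and 0.640 and 0.972 in primed and R1 ESCs-primed. It was thus lowest in the naive and Oct4GFP+ libraries, and in R1 ESCs-primed the sums were close, at 153 TPM for beta and 157 TPM for alpha chains. Alpha chains summed to between 157 TPM in R1 ESCs-primed and 667 TPM in mES-Oct4GFP-.

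Itgb1, the common integrin beta chain, was the leading or second beta chain in each library. Itgb1 was at 66.6 TPM in mES-Oct4GFP+ and 494 in mES-Oct4GFP- cells, 161 and 299 in 5C-Oct4GFP+ and 5C-Oct4GFP- cells, and 45.6, 195 and 222 TPM in naive, primed and R1 ESCs-primed cells. mES-Oct4GFP- was highest and naive and mES-Oct4GFP+ cells lowest, with the primed libraries above 5C-Oct4GFP+. Itgb5, which pairs with Itgav to bind vitronectin, was more even. Itgb5 stood at 98.8 TPM in mES-Oct4GFP+ cells and at 206 in mES-Oct4GFP- cells, at 54.4 in 5C-Oct4GFP+ cells and at 81.8 in 5C-Oct4GFP- cells, and at 94.2 in naive, 122 in primed and 97.5 in R1 ESCs-primed cells. It was highest in mES-Oct4GFP- and lowest in 5C-Oct4GFP+, and it exceeded Itgb1 in mES-Oct4GFP+ and naive cells, where it was 55.0% and 64.0% of the integrin beta TPM.

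Itgb4, the hemidesmosome chain with a long cytoplasmic tail that binds plectin, had the widest span of all members with reads in every library. Itgb4 was at 3.28 TPM in mES-Oct4GFP+ and 555 in mES-Oct4GFP- cells, 30.3 and 159 in 5C-Oct4GFP+ and 5C-Oct4GFP- cells, and 1.96, 3.39 and 1.95 TPM in naive, primed and R1 ESCs-primed cells. Both Oct4GFP- libraries were highest, 5C-Oct4GFP+ was intermediate, and the rest were at 3.39 TPM or less. In mES-Oct4GFP- it was 43.7% of the integrin beta TPM and 4.11 times its partner Itga6, whereas in naive, primed, R1 ESCs-primed and mES-Oct4GFP+ cells it was 0.0229 to 0.0542 of Itga6. Its exons overlap those of B230344G16Rik on the opposite strand, at 3.66 TPM or less. Itgb7, a chain best known from homing lymphocytes, was found at low levels. Itgb7 stood at 5.89 TPM in mES-Oct4GFP+ cells and at 6.36 in mES-Oct4GFP- cells, at 16.2 in 5C-Oct4GFP+ cells and at 10.9 in 5C-Oct4GFP- cells, and at 3.74 in naive, 1.41 in primed and 1.00 in R1 ESCs-primed cells. Both 5C sorted libraries were highest and the primed libraries lowest.

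Among the laminin-binding alpha chains, Itga6, the partner of Itgb1 and Itgb4, led in every library. Itga6 was at 60.5 TPM in mES-Oct4GFP+ and 135 in mES-Oct4GFP- cells, 112 and 132 in 5C-Oct4GFP+ and 5C-Oct4GFP- cells, and 45.9, 76.6 and 85.0 TPM in naive, primed and R1 ESCs-primed cells. It was highest in mES-Oct4GFP- and 5C-Oct4GFP- and lowest in naive cells. Itga3, an epithelial receptor for laminins with Lama3 or Lama5, varied more. Itga3 stood at 3.20 TPM in mES-Oct4GFP+ cells and at 52.9 in mES-Oct4GFP- cells, at 18.8 in 5C-Oct4GFP+ cells and at 32.8 in 5C-Oct4GFP- cells, and at 2.85 in naive, 54.7 in primed and 46.5 in R1 ESCs-primed cells. Primed, mES-Oct4GFP- and R1 ESCs-primed cells were at like levels, and naive and mES-Oct4GFP+ cells were lowest. Itga7, the laminin receptor of muscle, was lower. Itga7 was at 0.23 TPM in mES-Oct4GFP+ and 18.9 in mES-Oct4GFP- cells, 2.49 and 4.46 in 5C-Oct4GFP+ and 5C-Oct4GFP- cells, and 0.43, 1.21 and 0.73 TPM in naive, primed and R1 ESCs-primed cells. It was highest in mES-Oct4GFP- and rested on 3 reads in mES-Oct4GFP+ and 8 in naive cells. Its exons overlap those of Mettl7b on the opposite strand, at 0.59 TPM or less.

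Of the chains that bind the RGD motif, Itga5 is the fibronectin receptor. Itga5 stood at 27.8 TPM in mES-Oct4GFP+ cells and at 56.3 in mES-Oct4GFP- cells, at 10.8 in 5C-Oct4GFP+ cells and at 19.6 in 5C-Oct4GFP- cells, and at 2.90 in naive, 24.4 in primed and 31.4 in R1 ESCs-primed cells. mES-Oct4GFP- was highest and naive cells lowest, with 5C-Oct4GFP+ the next lowest. Itgav binds vitronectin, fibronectin and latent TGF-β. Itgav was at 32.9 TPM in mES-Oct4GFP+ and 93.4 in mES-Oct4GFP- cells, 18.5 and 48.2 in 5C-Oct4GFP+ and 5C-Oct4GFP- cells, and 21.5, 17.2 and 38.2 TPM in naive, primed and R1 ESCs-primed cells. mES-Oct4GFP- was highest and the primed and 5C-Oct4GFP+ libraries lowest. An opposite-strand gene with overlapping exons, Gm13684, stayed at 0.78 TPM or less.

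The laminin-binding chains Itga3, Itga6 and Itga7 made up 46.9% and 53.7% of the integrin alpha TPM in mES-Oct4GFP+ and mES-Oct4GFP- cells, 77.3% and 66.3% in the corresponding 5C fractions, and 58.2% in naive, 68.7% in primed and 58.5% in R1 ESCs-primed cells. Itga6 carried most of this share, and without it the laminin-binding chains had 4.52% of the remainder in mES-Oct4GFP+ and 35.2% in 5C-Oct4GFP+. The RGD-binding chains Itga5, Itga8, Itgav and Itga2b took 45.4% in mES-Oct4GFP+ and 18.5% in 5C-Oct4GFP+, the largest and smallest shares.

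**Figure D2:**
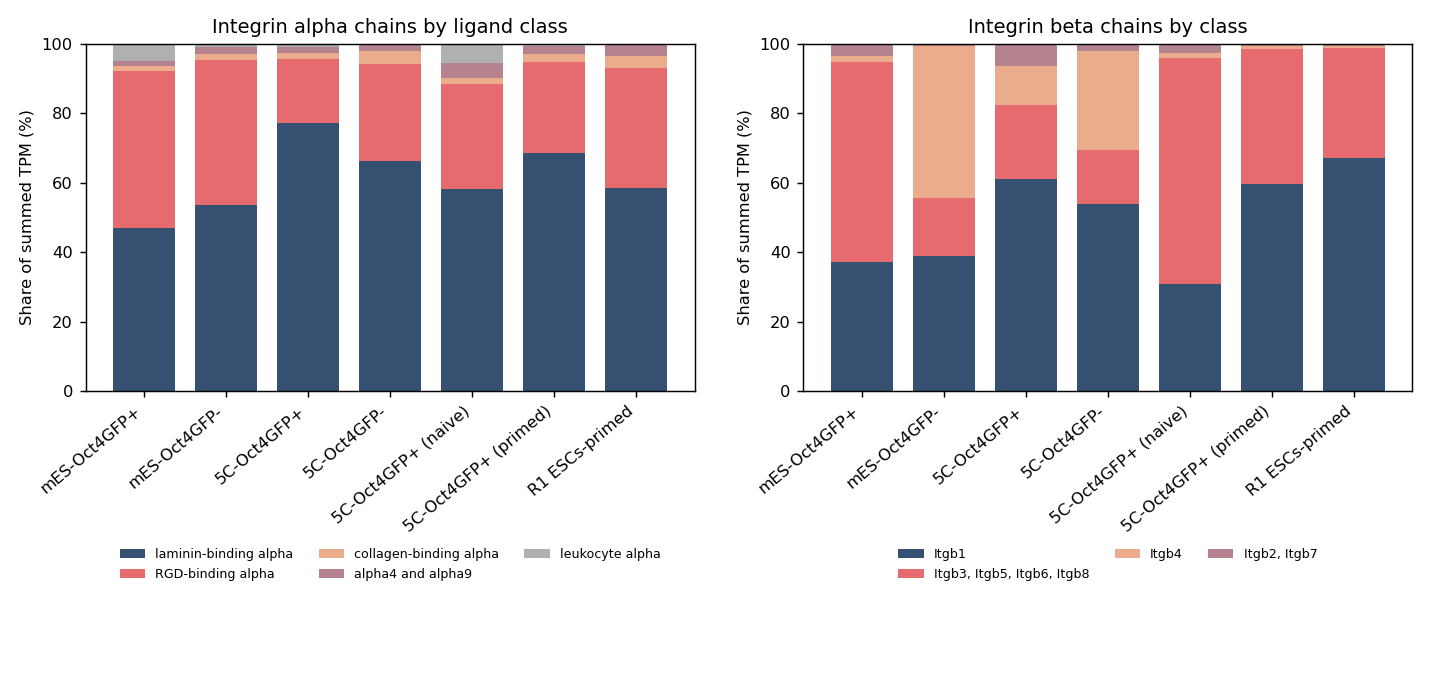
Share of the summed TPM of the 18 integrin alpha chains (left) and 8 integrin beta chains (right) in each library, by class. The laminin-binding alpha share ran from 46.9% in mES-Oct4GFP+ to 77.3% in 5C-Oct4GFP+, and Itgb4 took 43.7% of the beta TPM in mES-Oct4GFP- and 28.7% in 5C-Oct4GFP-.

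The other 19 members stayed under 10 TPM. Of the collagen-binding chains, Itga1 ran from 0.04 to 4.0 TPM, Itga2 from 0 to 1.82, Itga10 from 1.29 to 3.77 and Itga11 from 0 to 1.62, and Itga1 and Itga10 were highest in 5C-Oct4GFP-. Itga4 ran from 0.40 to 4.96 TPM and Itga9 from 0.36 to 6.86, with primed cells lowest for the former and R1 ESCs-primed highest for the latter. Itga8 ran from 0.39 to 6.19 TPM and the platelet chain Itga2b from 0.62 to 5.51. Itgb3 was between 0.80 and 5.69 TPM, Itgb6 between 0 and 1.31, and Itgb8, which activates latent TGF-β with Itgav, between 0 and 1.97.

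Among the leukocyte chains, Itgal, the alpha chain of the lymphocyte receptor for Icam1, was at 5.06 TPM in mES-Oct4GFP+, 3.31 TPM in naive and 0.82 TPM in 5C-Oct4GFP+ cells, and at 0.18 TPM or less in the other four. Its partner Itgb2 was at 0.90 TPM or less in all libraries, Itgad, Itgae and Itgax at 0.80 TPM or less, and Itgam at 1.81 TPM or less. The 8 leukocyte markers summed to 17.3 to 152 TPM. These were mostly Laptm5 and Cd68, except in the primed libraries. There they were mostly Coro1a, at 12.2 and 5.75 TPM in primed and R1 ESCs-primed cells, and Cd68, at 10.8 and 9.02 TPM. The defining marker Ptprc was at 0.80 TPM or less in every library and at 0 in mES-Oct4GFP+ and naive cells, where Itgal was highest. The 5 megakaryocyte markers, which would go with Itga2b and Itgb3, summed to at most 2.92 TPM, with Gp9 at 0 throughout.

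In the comparisons that follow, a member is called higher or lower where log2(TPM + 1) differs by at least 1, that is 2-fold on this scale, and TPM is at least 1 in either library. The scale understates changes of low genes. A member that meets the TPM limit through 1 library alone is bound to be lower in the other, if at times only slightly. Counts are therefore descriptions beside the share called among all genes. Ratios are of TPM, with exact 95% intervals.

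The first comparison sets Oct4GFP+ cells of the 2 media side by side. With 1 library per medium, medium and library cannot be told apart, here or in Oct4GFP- cells. Of 24 members that met the TPM limit, 7 were called higher in the 5C-Oct4GFP+ library than the mES-Oct4GFP+ library (13.7% of all genes were called in this direction) and 3 were lower (13.5%). The higher ones were Itga3, Itga7, Itgb1, Itgb4, Itgb7, Lama3 and Lama4, and the lower ones Itga5, Itgal and Itgb3. Of the laminin-binding alpha chains, Itga6 was not called, at 1.85-fold higher (from 1.69 to 2.04). Lama4 was 17.4-fold higher (from 9.86 to 34.1), Itgb4 was 9.24-fold higher (from 7.12 to 12.2) and Itga3 was 5.86-fold higher (from 4.39 to 7.98). Itgb1 was 2.42-fold higher (from 2.24 to 2.61), and Itga5 was 2.57-fold lower (from 2.19 to 3.01). Lama5 and Lamc1 differed little, at 1.16-fold (from 1.11 to 1.21) and 1.04-fold (from 1.01 to 1.08). The median difference was 0.33 over the members and -0.06 over all genes, on the log2(TPM + 1) scale. Keratinocyte markers moved with these chains, at 124.5 TPM in 5C-Oct4GFP+ against 0.26 TPM, where Krt17 was at 121 TPM and Krt5 and Krt14 at 0.94 and 2.82 TPM, while fibroblast markers were at 13.1 against 15.7 TPM. The part of such cells in the result was not tested.

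In Oct4GFP- cells, most chains called between the media were lower in 5C medium. Of 30 members, 1 was called higher in 5C-Oct4GFP- cells than mES-Oct4GFP- cells (background 9.68%) and 9 were lower (10.1%). The lower ones were Itga2b, Itga5, Itga7, Itga8, Itgb4, Itgb5, Lama3, Lama5 and Lamb3. Itga6, the partner of Itgb4, was at 0.979 of its level in mES-Oct4GFP- (from 0.917 to 1.04) and was not called. Itga7 was 4.23-fold lower (from 3.28 to 5.51) and Lamb3 was 3.83-fold lower (from 3.31 to 4.45). Itgb4 was 3.49-fold lower (from 3.36 to 3.62). Lama1 was the one chain called higher, at 3.19-fold (from 2.95 to 3.45). Over the members the median difference came to -0.66, and over all genes to 0.03. The summed keratinocyte markers were alike, at 230.4 against 230.1 TPM, with Krt5 at 43.8 against 2.41 TPM and Krt14 at 44.8 against 75.4 TPM. Endoderm markers, in contrast, were at 30.9 against 183 TPM and fibroblast markers at 273 against 616 TPM. Of the 10 fibroblast markers, 8 were called lower in 5C medium and 1 higher, Thy1, at 53.3 against 8.73 TPM. The part of these in the result was not tested.

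**Figure D3:**
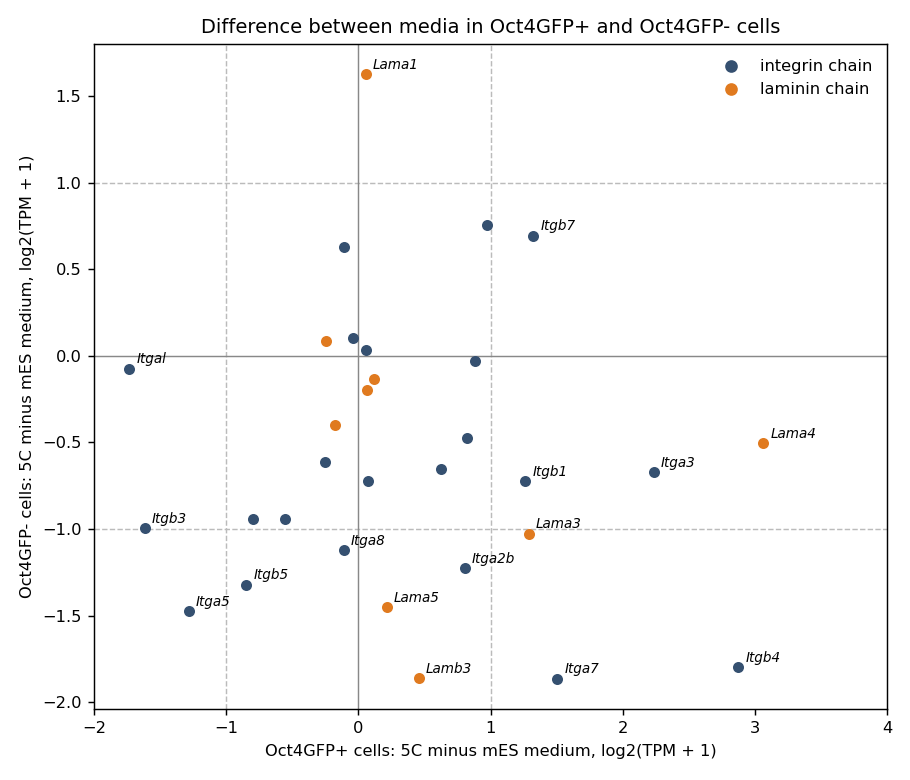
Difference between 5C and mES medium on the log2(TPM + 1) scale in Oct4GFP+ cells (x axis) and Oct4GFP- cells (y axis), for members that met the TPM limit in either comparison. Dashed lines mark 2-fold, and names are given past it. Itgb4, Itga7 and Lama3 lie at the lower right, at 2.87, 1.50 and 1.29 on the x axis and -1.80, -1.86 and -1.03 on the y axis.

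The sorted fractions were then compared within each medium. In mES medium, of 30 members, 1 was higher in Oct4GFP+ than in Oct4GFP- cells (background 17.9%) and 20 were lower (28.8%), of which 13 were integrin and 7 laminin chains. Lama4 was 189-fold lower in mES-Oct4GFP+ (from 108 to 368, on 12 reads), Itgb4 was 169-fold lower (from 131 to 221) and Lamb3 was 25.0-fold lower (from 15.3 to 43.9). Itgb1 was 7.42-fold lower (from 6.91 to 7.98). Itga11 had no read in mES-Oct4GFP+, which makes it at least 7.60-fold lower there at a floor of 3 counts for that library. The chain called higher was Itgal, at 28.1-fold (from 9.35 to 142, on 3 reads in mES-Oct4GFP-). Members had a median difference of -1.35 and all genes one of -0.15.

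In 5C medium, of 27 members, 1 was higher in Oct4GFP+ than in Oct4GFP- cells (background 8.45%) and 10 were lower (22.6%), of which 4 were integrin and 6 laminin chains. Lama4 was 7.66-fold lower in 5C-Oct4GFP+ (from 6.83 to 8.6), Lama2 was 45.0-fold lower (from 17.2 to 168, on 4 reads) and Itgb4 was 5.25-fold lower (from 4.89 to 5.63). Lamb1, Lamb2 and Lamb3, the whole set of beta chains, were lower by 3.01-, 3.36- and 4.22-fold. Itgb1 was not called, at 1.86-fold lower (from 1.78 to 1.94). Lama3 was the one chain called higher, at 2.13-fold (from 1.94 to 2.35), and Lamc1 differed by 1.03-fold (from 0.998 to 1.07). The median difference was -0.89 over the members and -0.25 over all genes. In both media the fibroblast markers were on the side of the Oct4GFP- cells, at 616 against 15.7 TPM in mES medium and 273 against 13.1 TPM in 5C medium, with 10 of 10 and 8 of 9 of those that met the TPM limit called lower in Oct4GFP+ cells. Keratinocyte markers were likewise at 230.1 against 0.26 TPM in mES and 230.4 against 124.5 TPM in 5C medium, with 4 of 4 and 3 of 4 called lower in Oct4GFP+ cells. Endoderm markers were at 183 against 11.9 TPM and 30.9 against 3.86 TPM, with 7 of 7 and 5 of 6 called lower. The part of all these in the result was not tested.

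**Figure D4:**
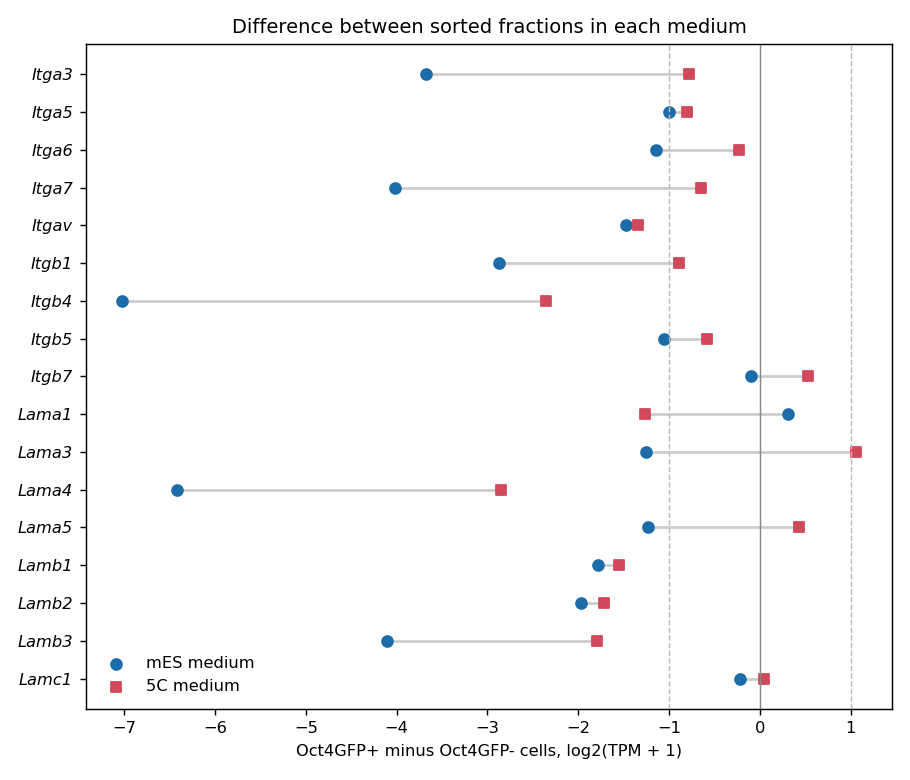
Difference between Oct4GFP+ and Oct4GFP- cells on the log2(TPM + 1) scale for the 17 members that reached 10 TPM, in mES medium (circles) and 5C medium (squares), joined by a line. Most points lie left of 0, Lama3 lies at -1.26 in mES and 1.06 in 5C medium, and Itgb4 at -7.02 and -2.35.

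The libraries converted from 5C-Oct4GFP+ cells were next set against that library, which was at passage 0 while they were at passage 20, so that medium, passage and library cannot be told apart. In the naive library 2 members were higher and 9 were lower of 25 (backgrounds 10% and 17.5%), and with a limit of 5 TPM 0 were higher and 7 lower. Higher in naive cells were Itgal, at 4.04-fold (from 2.35 to 7.25), and Itga4, at 3.32-fold (from 2.42 to 4.69). The lower ones were 8 integrin chains, Itga1, Itga3, Itga5, Itga6, Itga7, Itgb1, Itgb4 and Itgb7, and a single laminin chain, Lama4. Lama4 was 23.9-fold lower (from 10.9 to 65.8, on 6 reads), Itgb4 was 15.5-fold lower (from 10.9 to 22.9) and Itga3 was 6.58-fold lower (from 5.05 to 8.68). Itgb1 was 3.53-fold lower (from 3.27 to 3.82). Lama3 and Lama5 were at 0.945 (from 0.874 to 1.02) and 0.759 (from 0.726 to 0.794) of their level in 5C-Oct4GFP+. Over the members the median difference came to -0.73, and over all genes to -0.10. Keratinocyte markers were at 0.43 against 124.5 TPM, of which Krt17 alone was 121 TPM. The part of this difference in the result was not tested.

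The primed library differed from 5C-Oct4GFP+ in both directions, with 6 members higher and 5 lower of 24 (backgrounds 13.7% and 16.1%). With a limit of 5 TPM the counts were 4 higher and 5 lower. Higher in primed cells were Itga3, Itga5, Itga8, Itgb5, Itgb8 and Lamb1. Lamb1 was 3.82-fold higher (from 3.54 to 4.13), Itga3 was 2.92-fold higher (from 2.63 to 3.23), and Itga5 and Itgb5 were each 2.25-fold higher. The lower ones were Itgb4, Itgb7, Lama1, Lama3 and Lama4, mostly laminin chains. Lama1 was 24.2-fold lower (from 18.8 to 31.5), Lama3 was 19.5-fold lower (from 15.6 to 24.6) and Lama4 was 14.1-fold lower (from 9.98 to 20.4). Itgb4 was 8.94-fold lower (from 7.34 to 10.9). Members had a median difference of 0.02 and all genes one of 0.06. Fibroblast markers were at 80.5 against 13.1 TPM, with 9 of 10 called higher and 0 lower. Endoderm markers, mostly Foxa2 and Sox17 in primed cells, were at 185 against 3.86 TPM. Keratinocyte markers were at 2.37 against 124.5 TPM, the latter almost all Krt17. The part of all these markers in the result was not tested.

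Naive and primed cells of the same origin were compared directly, with the primed library as numerator. Of 27 members, 9 were higher in primed cells (background 22.2%) and 4 were lower (16.7%), and with a limit of 5 TPM 4 were higher and 2 lower. Itga3 was 19.2-fold higher (from 14.9 to 25.1), and the fibronectin receptor chains Itga5 and Itgb1 were 8.40-fold (from 6.43 to 11.2) and 4.27-fold (from 3.96 to 4.61) higher. Lamb1 was 7.68-fold higher (from 6.85 to 8.62). The other higher ones were the low chains Itga1, Itga2b, Itga8, Itga9 and Itgb8. In naive cells Itga1, Itga9 and Itga2b rested on 1, 2 and 3 reads. Itgb8 had no read there and was at least 14.6-fold higher in primed cells at a floor of 3 counts. Lama3 was 18.5-fold lower (from 14.7 to 23.3) and Lama1 was 18.4-fold lower (from 14.2 to 23.9), with Itga4 and Itgal also lower. Lama5 differed by 1.10-fold (from 1.06 to 1.16) and Itgb4 was at 3.39 against 1.96 TPM, under the limit for a call. The median difference was 0.40 over the members and 0.14 over all genes. Fibroblast markers were at 80.5 against 9.48 TPM and endoderm markers, mostly Foxa2 and Sox17 in primed cells, at 185 against 4.46 TPM. Their part in the result was not tested.

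Each converted library was then set beside a library from another route, R1 ESCs-primed for the primed state and mES-Oct4GFP+ for the naive one. Between primed cells and R1 ESCs-primed, 0 of 26 members were higher (background 2.3%) and 2 were lower (5.09%). Lama4 was 4.45-fold lower in primed cells (from 2.87 to 6.95) and Itgav was 2.22-fold lower (from 1.94 to 2.55). Itga2 had the third largest difference, at 0.42 against 1.82 TPM or 4.33-fold lower (from 2.09 to 9.57), and was not called. With a pseudocount of 0.1 in place of 1, 1 member was higher and 6 were lower, and with a limit of 5 TPM 1 was lower. Fibroblast markers were higher in R1 ESCs-primed, at 229.5 against 80.5 TPM, and their part in the result was not tested. Over the members the median difference came to -0.17, and over all genes to -0.03.

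Between naive cells and mES-Oct4GFP+, 1 of 20 members was higher (background 2.49%) and 3 were lower (6.27%). Naive cells were at passage 20 and mES-Oct4GFP+ cells at passage 0, and the media differed. Route, medium and passage therefore cannot be told apart in this pair. Lama3 was 2.38-fold higher in naive cells (from 2.11 to 2.70). Itga5 was 9.57-fold lower (from 7.27 to 12.8), Lamb1 was 2.27-fold lower (from 1.98 to 2.61) and Itgb3 was 2.77-fold lower (from 1.91 to 4.08). Members had a median difference of -0.30 and all genes one of -0.16. Several of these comparisons share a library, most of all 5C-Oct4GFP+, so they are not independent of each other.

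**Figure D5:**
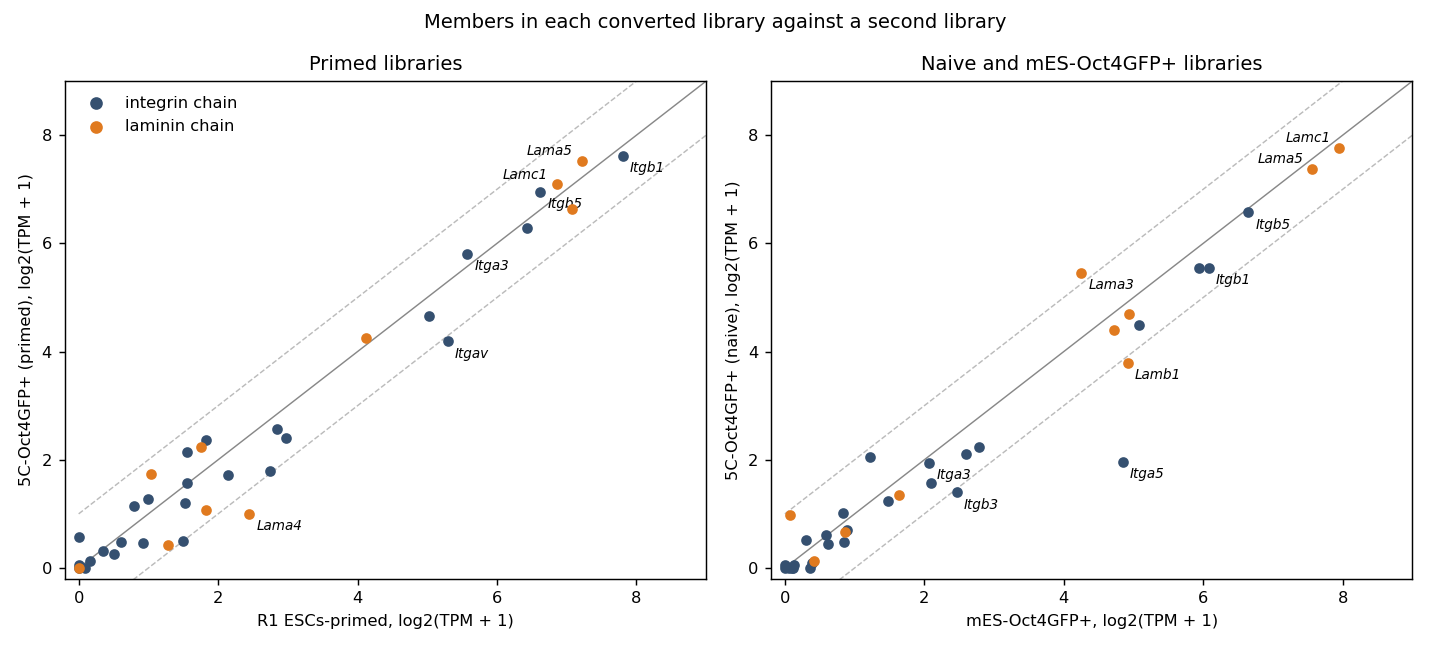
Level of the 36 members on the log2(TPM + 1) scale in primed cells against R1 ESCs-primed (left) and in naive cells against mES-Oct4GFP+ (right). Dashed lines mark 2-fold. Lama4 and Itgav lie under the lower line on the left, and Itga5, at 2.90 against 27.8 TPM, lies farthest from the diagonal on the right.

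The partners of these chains were counted from lists, with the share called over all genes as the background. Of 12 basement membrane genes other than laminins, 4 were higher and 1 was lower of the 7 that met the TPM limit in 5C-Oct4GFP+ against mES-Oct4GFP+ (backgrounds 13.7% and 13.5%), led by the collagen IV chains Col4a1, at 25.6 against 1.24 TPM, and Col4a2, at 13.7 against 1.04 TPM. In the mES medium fractions 0 of 10 were higher and 7 were lower in Oct4GFP+ cells (17.9% and 28.8%), where Col4a1 was at 289 TPM and Col4a2 at 193 TPM in the Oct4GFP- cells. In Oct4GFP- cells, 0 of 10 were higher and 4 were lower in 5C medium (9.68% and 10.1%), with Ntn4, a laminin-binding netrin, at 21.2 against 64.3 TPM and Col4a5 at 5.25 against 16.6 TPM. In naive against 5C-Oct4GFP+ cells 0 of 7 were higher and 4 were lower (10% and 17.5%), and in primed against 5C-Oct4GFP+ cells 0 of 9 were higher and 4 were lower (13.7% and 16.1%), led by the laminin cross-linker Nid1, at 12.0 against 40.2 TPM, and the proteoglycan Hspg2, at 47.2 against 146 TPM.

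Of 4 hemidesmosome genes, the plectin gene Plec and the collagen XVII gene Col17a1 were called higher in 5C-Oct4GFP+ against mES-Oct4GFP+ (background 13.7%), at 29.2 against 6.28 TPM and 2.77 against 0.11 TPM. All 4 were lower in mES-Oct4GFP+ than in mES-Oct4GFP- (28.8%), where Plec was at 74.3 TPM and Col17a1 at 36.7 TPM. Between the media in Oct4GFP- cells, Col17a1 alone of the 4 was called, lower in 5C medium (10.1%), at 16.1 against 36.7 TPM. Of the 19 genes of integrin activation and focal adhesion, 2 were higher and 0 lower in 5C-Oct4GFP+ against mES-Oct4GFP+ (13.7% and 13.5%), a share of higher calls under the background. In mES-Oct4GFP+ against mES-Oct4GFP- 0 were higher and 7 lower (17.9% and 28.8%), near the background for lower calls, led by the actin linkers Parva, at 7.53 against 162 TPM, and Zyx, at 5.98 against 104 TPM. In primed against naive cells 4 of 17 were higher and 2 lower (22.2% and 16.7%), near the background, with Zyx at 152 against 3.40 TPM and Parva at 13.6 against 0.68 TPM.

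Of the 10 other integrin ligands, 2 were higher and 5 lower of 9 in mES-Oct4GFP+ against mES-Oct4GFP- (17.9% and 28.8%), the former near the background, led by Thbs1, at 0.98 against 175 TPM, and the glycoprotein Tnc, at 0.44 against 25.9 TPM. In primed against naive cells 5 of 9 were higher and 2 lower (22.2% and 16.7%), with Tnc at 17.6 against 0.54 TPM and Icam1 at 5.27 against 70.7 TPM. Of the 3 laminin receptors that are not integrins, 1 was lower in mES-Oct4GFP+ than in mES-Oct4GFP- (28.8%), near the background. It was Dag1, at 55.0 against 112 TPM. In 5C-Oct4GFP+ against 5C-Oct4GFP- 1 of the 3 was higher (8.45%), Bcam, at 57.7 against 27.2 TPM. No other call was made among these 3 in the 9 comparisons.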

How the data were processed

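RNA of 7 mouse cell groups, 1 library each, was prepared by the authors with an Illumina TruSeq RNA kit, which does not record strand. The submitters' processing notes name Bowtie, RSEM and the build mm10, and their versions are not given in the sources used here. RSEM's expected counts, as deposited, estimate the reads of each Ensembl gene without normalization. The deposited TPM values were computed by the authors from the counts and effective lengths, with one total for all libraries, and the deposited FPKM values by counts per effective length and library size. The deposited length columns gave the effective lengths, which RSEM estimated per library.

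The 36 members were matched to Ensembl identifiers and checked as protein-coding in GENCODE M21 (GRCm38, the assembly also called mm10), and 1 further gene that met the symbol rule is not reported here. The members, marker lists and partner lists were chosen with earlier results of these data known. No test was run, since each of the 7 groups had 1 library, and the p-values of such a design would say nothing about replicates. In each of 9 comparisons a member was called where log2(TPM + 1) differed by at least 1 and TPM was at least 1 in either library, and the share called over all genes was computed alike. Intervals of ratios are exact at 95% (Clopper-Pearson), were taken from the rounded expected counts and carried to the TPM scale, and cover counting error only. A count of 0 was bounded with 3 counts. Members at 10 TPM or more in any library were described with all values, and in each comparison the 3 with the largest difference were given a ratio, as were other members on which a sentence turned, those chosen after their values were seen. At most the 2 partner genes with the largest difference were named per list and comparison. Alternatives were FPKM, a pseudocount of 0.1, a limit of 5 TPM, no TPM limit, rescaling by median ratios, expected counts, and leaving out Itga6. A further one kept only calls whose interval left out a ratio of 1. The scripts were tested on simulated data. Upstream sequences came from RefSeq (GRCm38.p6). The work used scipy 1.17.1, pandas 2.3.3 and numpy 2.4.6 under Python 3.11.15, with matplotlib 3.10.9 for figures.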

Additional observations from a re-analysis of the deposited data

Results flagged for a closer look

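Some pairs of comparisons gave a called difference in opposite directions for the same chain. They rest on 1 library per group, and the difference between the paired comparisons was not tested. Between 5C and mES medium, on the log2(TPM + 1) scale, Itgb4 differed by 2.87 in Oct4GFP+ cells and by -1.80 in Oct4GFP- cells, Itga7 by 1.50 and -1.86, and Lama3 by 1.29 and -1.03. The Itga7 value in Oct4GFP+ cells rests on 3 reads in mES-Oct4GFP+ and 56 reads in 5C-Oct4GFP+. Between Oct4GFP+ and Oct4GFP- cells, Lama3 differed by -1.26 in mES medium and by 1.06 in 5C medium. It had 333 and 1274 reads in mES-Oct4GFP+ and mES-Oct4GFP- cells and 1442 and 595 reads in the corresponding 5C fractions. Both Lama3 pairs rest on the same values of the same libraries, so they are not separate results.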

How the results depend on the processing

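No paired analysis was possible because each group had 1 library and the labels carry no replicate number, and for the same reason no replicate could be left out. Of the alternatives to the counts of called members and to the summed shares, 65 stayed close to the value reported and 17 moved. Part of the 65 could not have moved. A call on this scale already needs 1 TPM in the higher library, so dropping the TPM limit could change no count. Within a library FPKM is proportional to TPM, so the laminin shares by FPKM could not move either. Close was taken broadly for the counts. With a pseudocount of 0.1, it took in rises from 11 to 16 between the 5C fractions and from 10 to 14 between the Oct4GFP- libraries. A rise from 10 to 13 between the Oct4GFP+ libraries of the 2 media was also taken as close. The balance of the 6 higher and 5 lower members between primed and 5C-Oct4GFP+ cells turned to 4 and 5 with a limit of 5 TPM, and was even with FPKM, at 5 and 5, and with median-ratio rescaling, at 6 and 6. With a limit of 5 TPM, the members called fell from 11 to 7 between naive and 5C-Oct4GFP+ cells, from 13 to 6 between primed and naive cells, and from 2 to 1 between primed and R1 ESCs-primed cells, since fewer members met the limit. With a pseudocount of 0.1 the last count rose to 7, of which 6 were lower. With expected counts in place of TPM, the laminin-binding share of the integrin alpha chains was 39.1%, 48.3%, 74.5%, 64.5%, 47.2% and 66.1% in mES-Oct4GFP+, mES-Oct4GFP-, 5C-Oct4GFP+, 5C-Oct4GFP-, naive and primed cells. Without Itga6 it was 4.52%, 28.7%, 35.2%, 30.2%, 8.52%, 48.0% and 33.5% in the 7 libraries. Of the alternatives for single members, 69 stayed close and 12 moved, 8 of them with the smaller pseudocount. Rescaling by median ratios shifted all differences by -0.13 to 0.16. Chains at a few reads, such as Itga7 in mES-Oct4GFP+, were limited by depth, as their intervals show.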
